A study of Mus musculus with 6 samples.

Results

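Iron-sulfur cluster assembly in mitochondria was followed through 9 genes in differentiating MEL cells, a mouse erythroleukemia line: the cysteine desulfurase Nfs1, its partner Lyrm4, the scaffold Iscu, the chaperone pair Hspa9 and Hscb, the transfer protein Glrx5, and the late factors Isca1, Isca2 and Nfu1. The 9 were named by their role in the pathway, and each was represented by its RefSeq transcript with the highest mean count, out of 23896 genes that had a transcript in the files. All 9 passed the filter on low counts, which left 12381 genes tested with 1 transcript each.

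MEL cells were grown in MEM with fetal bovine serum, and 2% DMSO was added at log phase to induce erythroid differentiation. Poly(A)-selected mRNA-seq libraries were made from cells at 0, 2 and 4 days, with 2 biological replicates per day and 6 libraries in all. The day 0 cultures had no DMSO, and no untreated culture of day 2 or 4 is among the samples, so DMSO and time in culture cannot be told apart. MEL is a transformed line held at an early erythroid stage, and all 6 libraries come from that single line. In these bulk samples, fewer cells that make an mRNA and less of it per cell cannot be told apart. The libraries held 35294930 to 53899476 counts on transcripts, and the reads assigned to no feature made up 50.5% to 58.4% of all reads listed. Replicates differed by a median of 0.195 in log2 at day 0, 0.107 at day 2 and 0.127 at day 4. The summed level of 7 erythroid maturation markers, led by the globin Hba-a1, went up in CPM, the counts scaled to a common library size with TMM factors, with 483 to 543 in the day 0 libraries, 3740 to 4496 after 2 days and 16930 to 18990 after 4. The summed level of 4 progenitor markers, led by Myb, was 378 to 406 CPM before DMSO, then 95.6 to 120, and 32.6 to 40.4 in the day 4 libraries, and was almost all Myb. Gata2, another of the 4, was lower at day 2 and higher again from day 2 to day 4 (log2 fold change 0.80, edgeR adjusted p = 0.0036), Kit was under 1 CPM in every library and Cd34 was too low to test. Markers of myeloid (6 of 7 listed in the files), lymphoid and stromal cells summed to at most 2.60, 0.172 and 8.72 CPM in any library.

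Iron-sulfur clusters are cofactors of electron transfer and catalysis, and their synthesis begins on a scaffold protein in the mitochondrial matrix. A desulfurase takes sulfur from cysteine, the scaffold joins it with iron, and a dedicated chaperone pair hands the new cluster to carriers that bring it to recipient proteins. Erythroid cells draw on this pathway heavily, because ferrochelatase, the last enzyme of heme synthesis, carries a cluster and because iron regulatory protein 1 senses iron through one. Inherited defects in GLRX5, HSPA9 and HSCB are known causes of sideroblastic anemia, in which iron builds up in the mitochondria of red cell precursors.

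The promoters of Glrx5 and Isca1 are shown because these were the members with the largest increases. Both are taken from RefSeq (GRCm38.p6) as the 250 bases before the annotated start, read 5′ to 3′ on the strand of the gene, at chr12:105032368-105032617 on the plus strand for Glrx5 and chr13:59769790-59770039 on the minus strand for Isca1. Capitals mark matches, on either strand, to 4 short motifs: GATAA (bound by GATA factors), CACCC (bound by KLF factors), CCGGAAG (bound by ETS factors) and the NRF1 motif.
Glrx5: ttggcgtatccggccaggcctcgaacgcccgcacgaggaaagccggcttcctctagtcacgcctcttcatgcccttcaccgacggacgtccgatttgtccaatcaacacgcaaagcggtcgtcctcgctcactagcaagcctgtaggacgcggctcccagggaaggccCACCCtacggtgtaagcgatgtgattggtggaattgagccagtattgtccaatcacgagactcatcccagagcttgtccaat
Isca1: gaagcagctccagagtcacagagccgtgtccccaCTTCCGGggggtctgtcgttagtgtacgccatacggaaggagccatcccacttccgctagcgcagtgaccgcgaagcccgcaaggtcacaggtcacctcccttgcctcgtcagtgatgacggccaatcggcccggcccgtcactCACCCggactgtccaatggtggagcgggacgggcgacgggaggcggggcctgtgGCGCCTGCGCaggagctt

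The Glrx5 promoter held 1 match, a CACCC from 82 to 78 bases upstream of the start. That of Isca1 held a CACCC from 72 to 68 bases upstream, a CCGGAAG on the other strand from 216 to 210 bases upstream and an NRF1 motif from 18 to 9 bases upstream. RefSeq promoters were matched for 6 of the 9 members, which adds Nfs1, Lyrm4, Isca2 and Nfu1. The windows of Nfs1 and Isca2 run partly into the gene spans given below. That of Nfu1, at chr6:87009586-87009835, lies wholly inside its span. CACCC was found in 5 of the 6, against 51.3% of 27025 RefSeq promoters of the same length. CCGGAAG was found in 3 of the 6 (Nfs1, Isca1 and Isca2) against 7.05% of all, and the NRF1 motif in Isca1 alone against 3.86%. The CCGGAAG matches of Nfs1, 15 to 9 bases before the window's end, and of Isca2, 29 to 23 bases before it, lie inside the gene spans. GATAA, present in 23% of all promoters, was found among the members in Isca2 only, with matches on the other strand from 228 to 224 and from 101 to 97 bases upstream. No printed match overlaps another. A match describes the letters in this window and says nothing of occupancy.

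Across the 9 members, the largest changes had opposite directions. By day 4, Hspa9 was 4.42-fold and Lyrm4 2.37-fold lower than at day 0, whereas Glrx5 was 2.12-fold and Isca1 2.25-fold higher. A gene was called changed when edgeR's quasi-likelihood test gave a Benjamini-Hochberg adjusted p below 0.05 over all tested transcripts. Between day 0 and day 2, 4 members were called higher and 2 lower, beside 31.0% and 31.5% of all tested genes. From day 2 to day 4, 1 was called higher and 2 lower, beside 14.0% and 16.2% of genes. For day 4 against day 0, 3 were called higher and 3 lower, beside 35.5% and 36.4%. These counts do not set the members apart from other genes. The median log2 fold change of the 9 was 0.09, −0.07 and 0.25 for the 3 comparisons, and that of all tested genes was 0.01, −0.00 and −0.02. The comparisons share libraries, so they are not independent of one another.

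**Figure D1:**
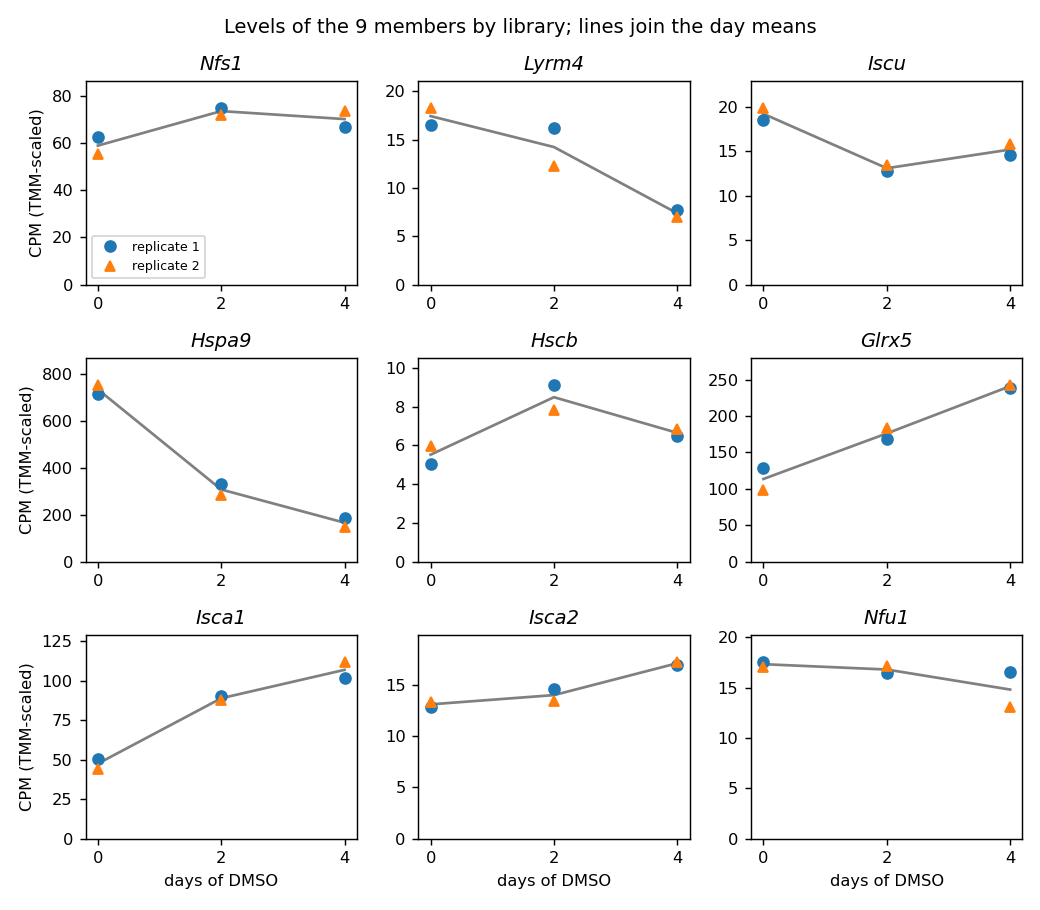
Level of each of the 9 members in CPM (vertical axes from 0) against days of DMSO, with circles for replicate 1, triangles for replicate 2 and a line through the day means (n = 2 per day). Hspa9 went down from 713 and 753 CPM at day 0 to 184 and 148 CPM at day 4, and Glrx5 went up from 129 and 98.5 CPM to 239 and 243 CPM.

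The sulfur-supplying pair moved apart. Nfs1, which lies at chr2:156123637-156144202 and releases sulfur from cysteine, measured 62.7 and 55.3 CPM at day 0, 75.1 and 72.2 CPM at day 2, and 66.8 and 73.7 CPM at day 4. Every day 2 and day 4 library was above both day 0 libraries, and days 2 and 4 overlapped. The rise of Nfs1 by day 2 was small, with a log2 fold change of 0.32 ± 0.11 (SE, edgeR adjusted p = 0.024), and without either day 2 library or the second day 0 library it no longer passed (edgeR adjusted p up to 0.142). At day 4 its log2 fold change against day 0 was 0.25 ± 0.11 (edgeR adjusted p = 0.056). It was 0.34 and passed without the first day 0 library (edgeR adjusted p = 0.0092), and was 0.15 without the second (edgeR adjusted p = 0.205). With total counts as the scaling it was 0.37 and passed (edgeR adjusted p = 0.011).

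Lyrm4, at chr13:35978797-36117357, encodes the small LYR-motif protein (also called ISD11) that binds and stabilizes Nfs1. It measured 16.6 and 18.3 CPM at day 0, 16.2 and 12.3 CPM at day 2, and 7.73 and 7.01 CPM at day 4. The 2 day 4 libraries lay well below the other 4. In the second interval Lyrm4 fell by 0.95 ± 0.16 on the log2 scale (SE, edgeR adjusted p = 0.0018), after a first interval with a log2 fold change of −0.30 ± 0.15 that did not pass (edgeR adjusted p = 0.114). That first-interval value rested on 1 library: it was −0.51 and passed without the first day 2 library (edgeR adjusted p = 0.049), and was −0.11 without the second (edgeR adjusted p = 0.645). The difference between its intervals, −0.65 ± 0.27, did not pass (edgeR adjusted p = 0.087), ranged from −0.23 to −1.03 with the first or the second day 2 library left out, and passed without the second day 0 library (edgeR adjusted p = 0.040), with total counts (0.019) and with no low count filter (0.036). Against day 0, Lyrm4 at day 4 had fallen by 1.24 ± 0.16 (edgeR adjusted p = 3.38e-05).

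Because Nfs1 and Lyrm4 act as a complex, their counts were also set against each other within each library, which removes the scaling between libraries. The ratio of Nfs1 to Lyrm4 counts was 3.79 and 3.02 at day 0, 4.65 and 5.88 at day 2, and 8.64 and 10.5 at day 4. No day overlapped another. With 2 libraries against 2, the smallest two-sided p that an exact permutation test can give is 0.333, so such ratios are given without a test.

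Iscu, the scaffold on which the cluster is built (chr5:113772418-113778288), went down early. It measured 18.5 and 19.9 CPM at day 0, 12.8 and 13.4 CPM at day 2, and 14.6 and 15.8 CPM at day 4. Both day 2 libraries were the lowest, and the day 4 libraries lay between those of the other days. Iscu fell by 0.55 ± 0.12 on the log2 scale by day 2 (SE, edgeR adjusted p = 0.0024). From day 2 to day 4 the log2 fold change was 0.21 ± 0.12 (edgeR adjusted p = 0.211), and the second interval differed from the first by 0.77 ± 0.22 (edgeR adjusted p = 0.022). The day 4 level was below that of day 0, with a log2 fold change of −0.34 ± 0.12 (edgeR adjusted p = 0.028). That last call was lost when any library other than the first of day 0 was left out (edgeR adjusted p up to 0.147), when only the 2 days were fitted (0.053), and with total counts as the scaling, where the log2 fold change was −0.22 (edgeR adjusted p = 0.126). Nfs1 counts were 3.39 and 2.78 times those of Iscu at day 0, 5.89 and 5.38 times at day 2, and 4.58 and 4.67 times at day 4.

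The chaperones that release the cluster from the scaffold gave the largest change among the members. Hspa9, the mitochondrial Hsp70 also known as mortalin, serves general protein import and folding as well as cluster transfer. It measured 713 and 753 CPM at day 0, 329 and 286 CPM at day 2, and 184 and 148 CPM at day 4. Its 3 days were fully separate, and the spread within each day was small beside the steps between days.

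Hspa9 fell by 1.25 ± 0.14 on the log2 scale by day 2 (SE, edgeR adjusted p = 2.10e-05) and by a further 0.89 ± 0.14 by day 4 (edgeR adjusted p = 0.0012). In total it was 4.42-fold lower at day 4 than at day 0, a decrease of 2.14 ± 0.14 in log2 (edgeR adjusted p = 2.88e-07). The intervals did not differ by the test of their difference, 0.37 ± 0.24 (edgeR adjusted p = 0.269).

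Hscb (chr5:110829070-110839793) is the J-domain partner that brings Iscu to Hspa9 and had the fewest counts of the 9, from 206 to 385 in a library. It measured 5.05 and 5.98 CPM at day 0, 9.13 and 7.84 CPM at day 2, and 6.46 and 6.83 CPM at day 4. The day 2 libraries were the highest, and those of day 4 lay above day 0 by less than 2 CPM. Hscb rose by 0.62 ± 0.16 in log2 by day 2 (SE, edgeR adjusted p = 0.0058), a call that was lost without the first day 2 library (edgeR adjusted p = 0.074). Its change from day 2 to day 4 was −0.35 ± 0.16 (edgeR adjusted p = 0.115), and the second interval differed from the first by −0.97 ± 0.27 (edgeR adjusted p = 0.021). Against day 0, the day 4 level gave a log2 fold change of 0.27 ± 0.16 (edgeR adjusted p = 0.158).

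The proportion of Hspa9 to Hscb therefore changed. Hspa9 had 141 and 126 counts for each count of Hscb at day 0, 36.0 and 36.4 at day 2, and 28.6 and 21.6 at day 4. Most of this shift was already present at day 2, and no library of day 2 or 4 came near the day 0 values. For comparison, the ratio of Hspa9 to Hspd1, the mitochondrial Hsp60 that acts in general folding and not in cluster transfer, was 1.21 and 1.27 at day 0, 1.46 and 1.44 at day 2, and 1.22 and 1.13 at day 4. Days 0 and 4 overlapped in that ratio.

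**Figure D2:**
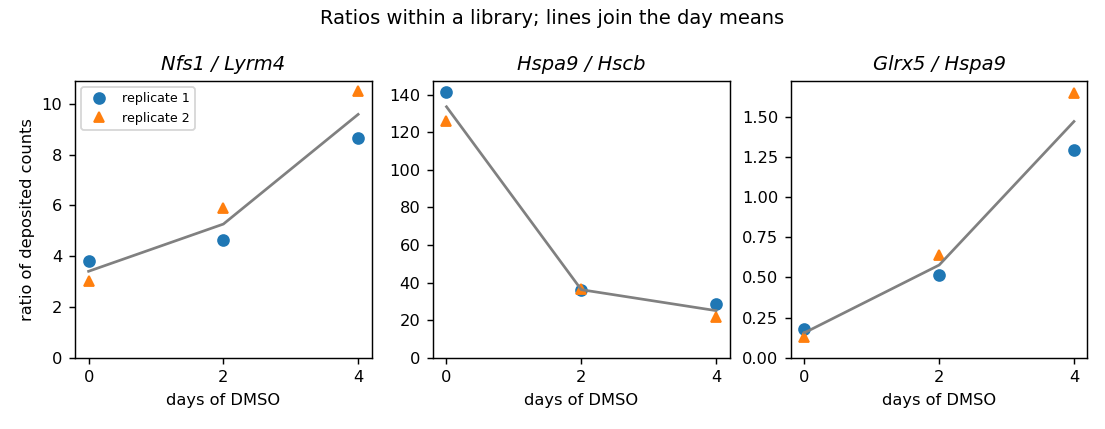
Ratio of deposited counts within each library for 3 pairs of members, against days of DMSO, with circles for replicate 1, triangles for replicate 2 and a line through the day means. Nfs1 to Lyrm4 went from 3.79 and 3.02 to 8.64 and 10.5, Hspa9 to Hscb from 141 and 126 to 28.6 and 21.6, and Glrx5 to Hspa9 from 0.180 and 0.131 to 1.30 and 1.65.

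Glrx5 rose at both steps. It encodes the mitochondrial monothiol glutaredoxin that accepts the cluster from the chaperones (chr12:105032618-105040911), and it measured 129 and 98.5 CPM at day 0, 169 and 183 CPM at day 2, and 239 and 243 CPM at day 4. Its 3 days did not overlap, and the day 0 replicates were the farthest apart. Glrx5 rose by 0.63 ± 0.13 in log2 by day 2 (SE, edgeR adjusted p = 0.0018) and by 0.45 ± 0.13 from day 2 to day 4 (edgeR adjusted p = 0.026). The second of these calls was lost without any of the day 2 or day 4 libraries (edgeR adjusted p up to 0.218) and with total counts as the scaling (edgeR adjusted p = 0.063). Over the 4 days Glrx5 became 2.12-fold higher, a log2 fold change of 1.09 ± 0.13 (edgeR adjusted p = 2.59e-05). It began with 0.180 and 0.131 counts for each count of Hspa9 and ended with 1.30 and 1.65, after 0.514 and 0.641 at day 2.

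Isca1 and Isca2 encode A-type carriers that work together late in the pathway, in making the clusters of mitochondrial aconitase and similar enzymes. Isca1 (chr13:59755415-59769789) measured 50.7 and 44.3 CPM at day 0, 90.1 and 87.6 CPM at day 2, and 102 and 112 CPM at day 4. Day 0 was far below both later days, and day 4 stood just above day 2. It rose by 0.90 ± 0.11 in log2 by day 2 (SE, edgeR adjusted p = 4.03e-05), and the log2 fold change from day 2 to day 4 was 0.27 ± 0.11 (edgeR adjusted p = 0.085), which passed when either day 0 library was left out (edgeR adjusted p = 0.022 in both). Its second interval was smaller than the first by 0.64 ± 0.19, written as a signed difference of −0.64 (edgeR adjusted p = 0.025). Over 4 days Isca1 became 2.25-fold higher, the largest increase among the members (log2 fold change 1.17 ± 0.11, edgeR adjusted p = 3.25e-06).

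Isca2 (chr12:84773230-84775089) moved less. It measured 12.8 and 13.3 CPM at day 0, 14.5 and 13.4 CPM at day 2, and 16.9 and 17.2 CPM at day 4. The day 4 libraries were above the other 4, whereas day 2 lay only just above day 0. Isca2 was 1.31-fold higher at day 4 than at day 0, a log2 fold change of 0.39 ± 0.12 (SE, edgeR adjusted p = 0.015) that was lost without the second day 4 library (edgeR adjusted p = 0.071), and neither single interval passed, although the second did when either day 0 library was left out (edgeR adjusted p = 0.047 in both). Counts of Isca1 were 3.95 and 3.33 times those of Isca2 at day 0, 6.20 and 6.54 times at day 2, and 6.0 and 6.5 times at day 4. That ratio moved in the first interval and overlapped between days 2 and 4.

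Nfu1 (chr6:87009234-87028461), a late carrier that serves lipoic acid synthase and respiratory complexes, was not called changed in any comparison of the 6 libraries. It measured 17.6 and 17.1 CPM at day 0, 16.4 and 17.2 CPM at day 2, and 16.6 and 13.0 CPM at day 4. Only the second day 4 library stood clearly below the rest. The log2 fold change at day 4 against day 0 was −0.23 ± 0.14 (SE, edgeR adjusted p = 0.159). It rested on the day 4 libraries, with −0.41 and a call when the first was left out (edgeR adjusted p = 0.044) and −0.07 when the second was (edgeR adjusted p = 0.723).

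**Figure D3:**
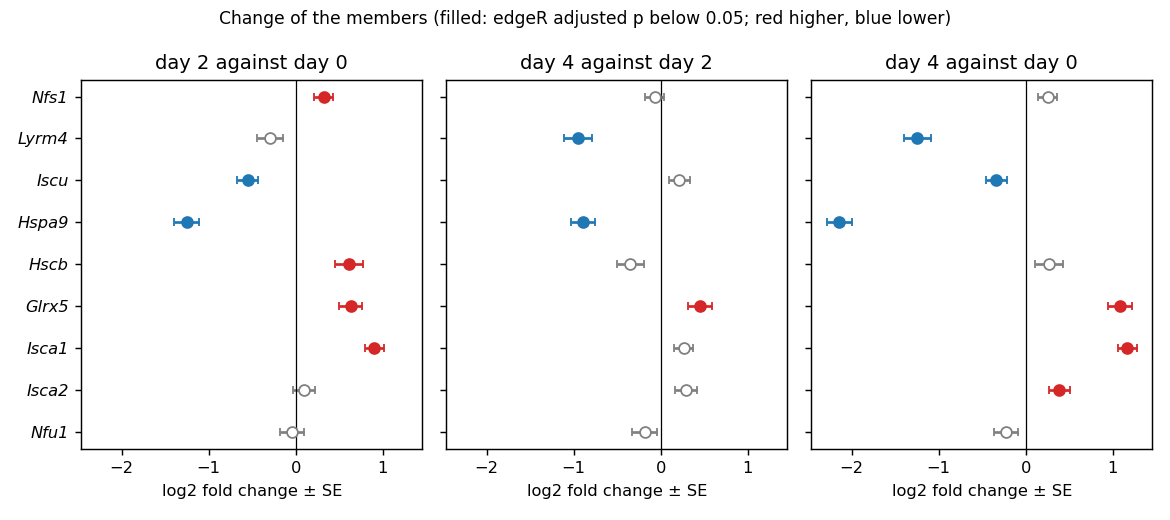
log2 fold change of each member with its standard error (horizontal axis) in the 3 comparisons of days, from edgeR on 6 libraries, with filled points where the adjusted p was below 0.05, in red for higher and blue for lower. Hspa9 lies at −1.25, −0.89 and −2.14, and Isca1 at 0.90, 0.27 and 1.17.

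Changes in the first and second interval were compared for each member with an interaction term. They differed for 3 of the 9, Iscu, Hscb and Isca1, beside 30.0% of all tested genes. Iscu and Hscb each moved in the first interval and had a second-interval value of the opposite sign that did not pass alone, and Isca1 kept its direction. When the first day 2 library was left out, 0 of the 9 passed this edgeR test, and 0 had an unadjusted p below 0.05. Without the second day 2 library 0 passed and 4 had such an unadjusted p. Iscu alone passed without the first day 4 library. DESeq2 on all 6 libraries called the same 3 genes, and total counts as the scaling ended the call of Iscu (edgeR adjusted p = 0.105).

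Levels of the members were compared with one another per kilobase of transcript, as CPM per kb, because counts grow with transcript length. Lengths came from RefSeq ends for Lyrm4, Hspa9, Glrx5 and Isca1, and from GENCODE for the other members. At day 0 the order was Hspa9 at 241 ± 9.25 (SD, n = 2), Glrx5 at 113 ± 21.2, Nfs1 at 28.8 ± 2.58, Isca1 at 24.8 ± 2.34, Iscu at 20.1 ± 1.03, Nfu1 at 18.3 ± 0.351, Isca2 at 14.8 ± 0.398, Lyrm4 at 11.5 ± 0.816 and Hscb at 6.86 ± 0.822. No neighbours in this order overlapped between their replicates. At day 2 Glrx5 led with 176 ± 10.0 CPM per kb, followed by Hspa9 at 101 ± 9.99, and only Hscb and Lyrm4, the last of the order, overlapped. At day 4 Glrx5 stood at 240 ± 3.01 CPM per kb, ahead of Isca1 at 55.8 ± 3.80 and Hspa9 at 54.5 ± 8.56, which overlapped, as did Iscu and Nfu1. Lyrm4 was last at day 4, at 4.86 ± 0.339 CPM per kb. Glrx5 and Hspa9 had thus changed places between days 0 and 2. This exchange at day 2 depends on the length given to Glrx5: RefSeq ends its transcript at 1002 bases, whereas GENCODE gives 2925, and with GENCODE lengths Glrx5 stood at 60.2 CPM per kb at day 2, below Hspa9 at 101. At day 4 Glrx5 led with either length.

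**Figure D4:**
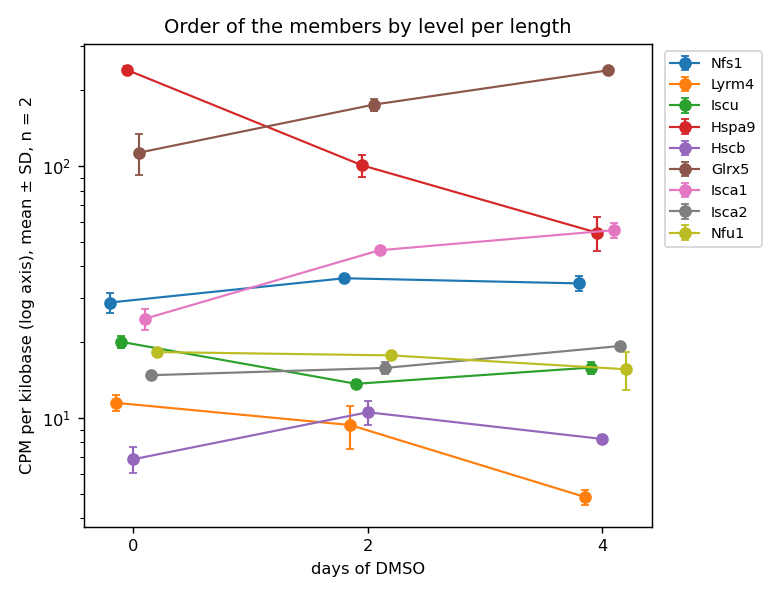
Mean level of the 9 members in CPM per kilobase on a log axis, with bars of 1 SD (n = 2), against days of DMSO. Hspa9 runs from 241 down to 54.5 while Glrx5 runs from 113 up to 240, crossing between days 0 and 2 with the lengths used here. With GENCODE lengths, not drawn, Glrx5 stood at 60.2 at day 2, below Hspa9 at 101.

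The makeup of the summed level of the 9 members changed over the days. With the lengths above, the sum was 489 and 469 CPM per kb at day 0, 429 and 423 at day 2, and 450 and 448 at day 4, and both day 0 libraries were the highest. Hspa9 made up 47.9% and 52.7% of the sum at day 0, 25.2% and 22.2% at day 2, and 13.5% and 10.8% at day 4. Glrx5 made up 26.2% and 20.9%, then 39.3% and 43.2%, and finally 53% and 54.1%. Without Hspa9, the sum of the other 8 went from 255 and 222 CPM per kb to 321 and 329 and then to 389 and 400. These sums and shares also depend on the length given to Glrx5. With GENCODE lengths for all members, an alternative chosen after seeing the data, the sum went down, from 401.1 and 400.5 CPM per kb at day 0 to 315 and 299.5 after 2 days and 291 and 287 after 4. Hspa9 then made up 58.3% and 61.7% of it at day 0 and 20.8% and 16.9% at day 4, and Glrx5 10.9% and 8.41% at day 0 and 28.1% and 29.0% at day 4. Without Hspa9 the sum was 167 and 154 CPM per kb at day 0 and 230 and 238 at day 4. With either length the share of Hspa9 was lower, and that of Glrx5 higher, in both day 4 libraries than in both of day 0.

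The remaining mitochondrial assembly factors were followed as a list of 15 genes. For day 4 against day 0, 4 were called higher and 9 lower, beside 35.5% and 36.4% of all tested genes, with a median log2 fold change of −0.36 beside −0.02 for all tested genes. Those with the largest changes were Slc25a37 (mitoferrin 1, which carries iron into mitochondria), with a log2 fold change of 2.49 (edgeR adjusted p = 1.63e-07), Abcb10, a transporter of the inner membrane that binds mitoferrin 1, with 2.45 (edgeR adjusted p = 1.10e-07), and Bola1, a partner of Glrx5, with −1.60 (edgeR adjusted p = 6.54e-07). Chosen after its values were seen, Fdx2, the ferredoxin that supplies electrons to the assembly, fell by 0.90 in log2 (edgeR adjusted p = 0.000229).

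Of 11 cytosolic assembly factors, which build clusters for proteins outside mitochondria, 7 were called lower at day 4 against day 0 and the other 4 did not pass, beside 36.4% of all tested genes called lower, and the median log2 fold change was −0.63. The genes with the largest decreases were Ciao2a (log2 fold change −1.23, edgeR adjusted p = 0.000357), Glrx3 (−1.14, edgeR adjusted p = 3.10e-05) and Bola2 (−0.92, edgeR adjusted p = 1.46e-05). The day 0 libraries of Ciao2a were far apart, at 71.6 and 132 CPM.

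Among the recipients, 15 mitochondrial iron-sulfur proteins gave 3 called higher and 11 called lower at day 4 against day 0, beside 35.5% and 36.4% of all tested genes, with a median of −0.53. Fech, the ferrochelatase that inserts iron into heme, measured 39.8 and 35.4 CPM at day 0, 93.0 and 95.1 CPM at day 2, and 139 and 141 CPM at day 4. Its days did not overlap, and it rose by 1.90 ± 0.11 in log2 (SE, edgeR adjusted p = 9.88e-08). Ndufs8, a cluster-bearing subunit of respiratory complex I, fell by 1.14 (edgeR adjusted p = 7.15e-06). Cisd3, a small mitochondrial protein with clusters of its own, rose by 1.13 (edgeR adjusted p = 0.001).

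The cytosolic and nuclear recipients had 19 of 20 genes tested, as Dpyd had no count in any library. Of these, 14 were called lower and 1 higher for day 4 against day 0, beside 36.4% and 35.5% of all tested genes, with a median log2 fold change of −0.81. The genes with the largest decreases were Dna2, a nuclease-helicase of DNA replication (change in log2 of −1.57, edgeR adjusted p = 2.81e-07), together with the base excision repair glycosylases Nthl1 (−1.54, edgeR adjusted p = 9.51e-06) and Mutyh (−1.53, edgeR adjusted p = 0.00204). Mutyh was under 1 CPM in every library, with 0.93 and 0.87 CPM at day 0 and 0.39 and 0.24 CPM at day 4. Many in this list serve DNA replication and repair, and the summed level of the progenitor markers went down over the same days. Their part in the result was not tested.

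General mitochondrial genes, chiefly of import and folding, were listed because Hspa9 also belongs to that system. The list also held Cs, Tfam and Vdac1, which have other roles and fell by 0.98, 1.16 and 0.70 in log2 at day 4 against day 0. Of the 17 genes in the list, 16 were called lower at day 4 against day 0, beside 36.4% of all tested genes. The protease subunit Clpx did not pass, with a log2 fold change of 0.06 (edgeR adjusted p = 0.673). The median of the list was −1.45. Its largest decreases were in Phb (prohibitin, log2 fold change −2.46, edgeR adjusted p = 1.50e-06), Hspe1 (the Hsp10 co-chaperonin, −2.08, edgeR adjusted p = 7.07e-08) and Hspd1 (−2.07, edgeR adjusted p = 1.76e-07). The value of Hspa9, −2.14, lay among these. Day 0 libraries of Phb were far apart, at 48.6 and 80.1 CPM. Most of the list's calls were already present at day 2, with 16 lower for day 2 against day 0 (31.5% of all tested genes) and 5 lower for day 4 against day 2 (16.2%).

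**Figure D5:**
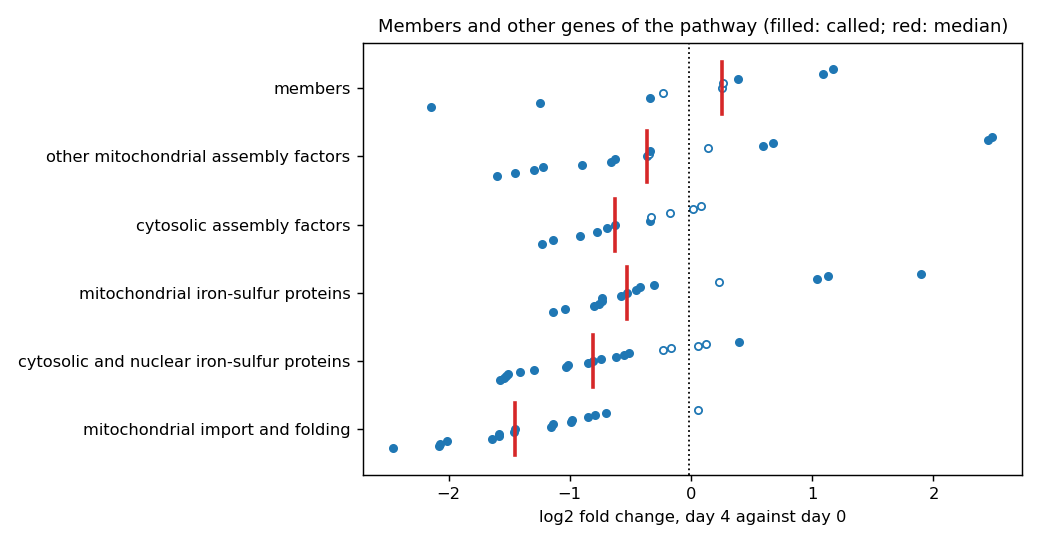
log2 fold change for day 4 against day 0 (horizontal axis) of each tested gene in the 9 members and 5 lists of the pathway, with filled points for genes called by edgeR, a red bar at each list's median and a dotted line at the median of all tested genes, −0.02. The members have a median of 0.25, and the medians of the lists run from −0.36 to −1.45.

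The genes whose pattern over the 6 libraries was closest to those of the extreme members were sought among 12372 other tested genes, by the Euclidean distance of log2 CPM centred on each gene's mean. Closest to Isca1 were Mosmo at a distance of 0.068, Lrig2 at 0.086 and Map3k2 at 0.090, which rose by 1.18, 1.18 and 1.14 in log2 from day 0 to day 4. Closest to Hspa9 were Selplg at 0.142, Pik3r5 at 0.159 and Shroom1 at 0.160, which fell by 2.18, 2.13 and 2.23.

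Some members share sequence with other genes, and how the counting treated shared reads is not given in the sources used here. Of the 40-base words of a member's GENCODE transcript, 70.2% for Isca1 also occur in the gene AK157302 and 28% for Iscu in the pseudogene Gm16437. The shares were 13.5% for Nfu1 in the pseudogene Gm7859, 10.9% for Nfs1 in the overlapping gene Gm28036 and 8.04% for Hspa9 in the pseudogene Hspa9-ps1. The values of Isca1 and Iscu are the least certain for this reason. Lyrm4, Hscb, Glrx5 and Isca2 share none. The kit kept strand, but whether the counting used it is not stated, and exons on the opposite strand overlap Nfs1 (Romo1, 7.22% of the transcript), Lyrm4 (Fars2, 5.51%) and Isca1 (Etohd2, 9.63%). Etohd2 had 38 counts over the 6 libraries. Romo1 had 1776 to 5207 counts in a library and Fars2 698 to 1042, and their part in the Nfs1 and Lyrm4 values was not tested.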

How the data were processed

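Per the labels and the methods, total RNA was extracted with Trizol, TruSeq stranded mRNA libraries were sequenced, and reads were trimmed with cutadapt and aligned to mm10 with TopHat. The methods give the TopHat library type, its setting for strand, as fr-secondstrand. Whether that setting suits the kit was not tested. HTSeq and DESeq2 are named in the submitters' processing notes. The authors deposited whole-number counts of reads per RefSeq transcript for each of the 6 libraries, not normalized or pooled. The annotation release and counting settings are not given in the sources used here.

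Of 32654 transcripts, 32199 were named from RefSeq and 187 from GENCODE M21. Rows that name no transcript were left out. Day and replicate came from the labels. Counts were scaled by TMM (factors 0.921 to 1.07), filtered by filterByExpr to 18351 transcripts, and tested in 1 edgeR 4.0.16 quasi-likelihood fit (R 4.3.3) with a mean per day and 3 residual degrees of freedom. CPM are TMM-scaled. The fit was tested on simulated counts in which few transcripts changed, equally up and down, at day 4 only. The simulated spread was the same on every day. It therefore does not cover the many changed genes or the unequal spread of these libraries. P-values rest on a spread between cultures estimated over all 3 days, with 2 cultures per day, and drawn toward that of other transcripts. The day 0 replicates, which differed most, thus also bear on the test of day 4 against day 2. The counting error of the least abundant member is that of 206 or more counts.

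The members and lists were chosen with earlier results of these data known. Named genes were all members, the 3 called genes of each list with the largest day 4 against day 0 change, and the 3 nearest genes to the extreme members. Alternatives were other scalings, DESeq2 1.42.0, no low count filter, 2-day fits, a replicate block, a minimum log2 change of 1, another transcript, and leaving out each library.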

Additional observations from a re-analysis of the deposited data

Results flagged for a closer look

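The changes of 3 members differed between the first and the second interval by the interaction test of edgeR over 6 libraries. For Iscu, the second interval minus the first was 0.77 in log2 (edgeR adjusted p = 0.022): the level went down by 0.55 and then by a value of the other sign, 0.21, that did not pass. For Hscb the difference was −0.97 (edgeR adjusted p = 0.021), with 0.62 in the first interval and −0.35 in the second. For Isca1 it was −0.64 (edgeR adjusted p = 0.025), with 0.90 in the first interval and 0.27 in the second. Each difference counts the day 2 libraries in both intervals, and 0 of the 3 passed in edgeR when either of those libraries was left out. With 2 libraries per day, no test for a library far from the others was possible within a day.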

How the results depend on the processing

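DESeq2, relative log expression factors, globins left out of the scaling and the replicate block each kept all 36 member values (9 members, 3 comparisons and the difference of intervals) in direction and on their side of the threshold. Whether the replicate numbers pair the samples across days is not stated in the sources used here. Replicate deviations correlated by 0.028, 0.046 and 0.076 between days. These values cannot decide it, because counting noise also pulls them toward 0. With the replicate block, 6, 3, 6 and 3 members were called for day 2 against day 0, day 4 against day 2, day 4 against day 0 and the difference of intervals, as without it. Over all settings, 437 of 499 single values stayed, 40 lost the call, 17 gained one and 5 changed sign.

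With a minimum absolute log2 fold change of 1, there were 1, 0 and 0 members for the first and second interval and their difference. For day 4 against day 0 there were 4 members, 2 higher and 2 lower. Of the 65 called genes of the other lists in that comparison, 32 remained. By list they were other mitochondrial assembly factors 6, cytosolic assembly factors 2, mitochondrial iron-sulfur proteins 5, cytosolic and nuclear ones 8, and mitochondrial import and folding 11. Fitting only the 2 days compared gave 6 members for day 4 against day 2 in place of 3. Leaving out 1 library gave 5 to 6 members for day 2 against day 0, 2 to 5 for day 4 against day 2, 4 to 7 for day 4 against day 0, and 0 to 4 for the difference of intervals. It gave 59 to 67 for the other lists together. Total counts in place of TMM moved the median of all genes by 0.20, −0.083 and 0.115 in log2 over the 3 comparisons, and called 5001 genes as higher and 2881 as lower in the first interval (3841 and 3902 with TMM), 1228 and 2532 in the second (1739 and 2010), and 4916 and 4006 over both (4393 and 4501). Under it, 5 members were higher and 2 lower at day 4 against day 0, with Nfs1 (edgeR adjusted p = 0.011) and Hscb (edgeR adjusted p = 0.0497) gained and Iscu lost. No called value changed sign. The uncalled ones that did were Nfu1 for day 2 against day 0 (0.15) and the Isca2 difference of intervals (−0.086) with total counts, and 3 with 1 library left out: Nfs1 for day 4 against day 2 (−0.144 to 0.0014), the Glrx5 difference of intervals (−0.390 to 0.0022) and that of Nfu1 (−0.323 to 0.025). For all of these the cause was not tested. The lowest member, Hscb, had 206 to 385 counts in a library, and 2 libraries per day limit the precision of every value.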
